A study of Drosophila melanogaster with 7 samples.

Results

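Bone morphogenetic protein (BMP) signalling controls the growth of synapses in Drosophila, and 9 of its core genes were examined in RNA from cultured neurons: the ligand genes gbb and dpp, the type I receptor genes tkv and sax, the type II receptor genes wit and put, the Smad genes Mad and Med, and Dad, which encodes an inhibitory Smad. The genes were chosen by name, as the core of the pathway, with earlier results of these data known. A row of the count table carried the annotated identifier of 8 of them, out of 17753 genes listed. Med is annotated in the reference under FBgn0288966, an identifier that matched no row, and its level was not analysed here. The RNA came from 7 control cultures of primary neurons, grown from dissociated central nervous systems of third-instar larvae. The study's methods name w1118 as the control strain and describe several nervous systems pooled for each sample. No transgene, allele or agent is named for them in the labels. They form a single condition, so the comparisons below are between genes and between cultures.

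In the canonical pathway, a secreted BMP dimer brings together type I and type II receptors, which are both serine/threonine kinases. The type II receptor phosphorylates the type I receptor, which phosphorylates the Smad protein Mad. Phosphorylated Mad joins the co-Smad Medea, encoded by Med, and the complex enters the nucleus to control transcription. At the fly neuromuscular junction, Glass bottom boat, encoded by gbb, is released by the muscle and acts on receptors of the motor neuron, where wit is required for normal synaptic growth. Dad is a transcriptional target of the pathway and its product restrains signalling.

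The libraries held 21178515 to 33891136 counts and are named here by their totals in units of 1000000 counts (libraries 21.2, 25.1, 25.7, 26.8, 28.5, 28.6 and 33.9), because the table does not tie its columns to numbered cultures. The count profiles of the 21 pairs of libraries differed beyond sampling noise, with a chi-square per degree of freedom of 18.7 to 74.1. The study calls these cultures biological replicates, while the labels do not say whether each came from a separate dissection. The summed level of 6 neuronal markers was 2274 to 2794 CPM (counts scaled to a library total of 1000000), against 124 to 188 CPM for 7 glial markers, and all markers of both lists were detected. Library 26.8 stood apart in markers of other tissues. Its muscle markers summed to 306 CPM against 85.7 to 133 CPM in the others, its hemocyte markers to 66.9 against 29.9 to 35.1 CPM, its fat body markers to 17.6 against 3.26 to 9.41 CPM, its photoreceptor markers to 914 against 101 to 270 CPM, and its yolk protein genes to 742 against 24.6 to 239 CPM. Of these lists, 3 of 6 hemocyte, 8 of 9 muscle, 1 of 6 fat body, 7 of 7 photoreceptor and 3 of 3 yolk protein genes reached 10 counts in every library. In such bulk RNA, fewer cells that express a gene and less RNA per cell cannot be told apart.

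All 8 matched BMP pathway genes were detected, meaning at least 10 counts in each library, as were 9476 of all listed genes (53.4%). Their counts per library ranged from 71 for dpp to 8683 for Dad. Together the 8 genes accounted for 605.5 ± 7.86 CPM (SD, n = 7), and Dad alone took 41.3% of their counts (39.7% to 42.7%). Levels were compared between genes as CPM per kilobase of annotated exon. On that scale the median of the 8 genes was 12.7, close to the median of 12.5 over the 9403 detected genes with an annotated length, and 5 of the 8 lay above that median.

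**Figure D1:**
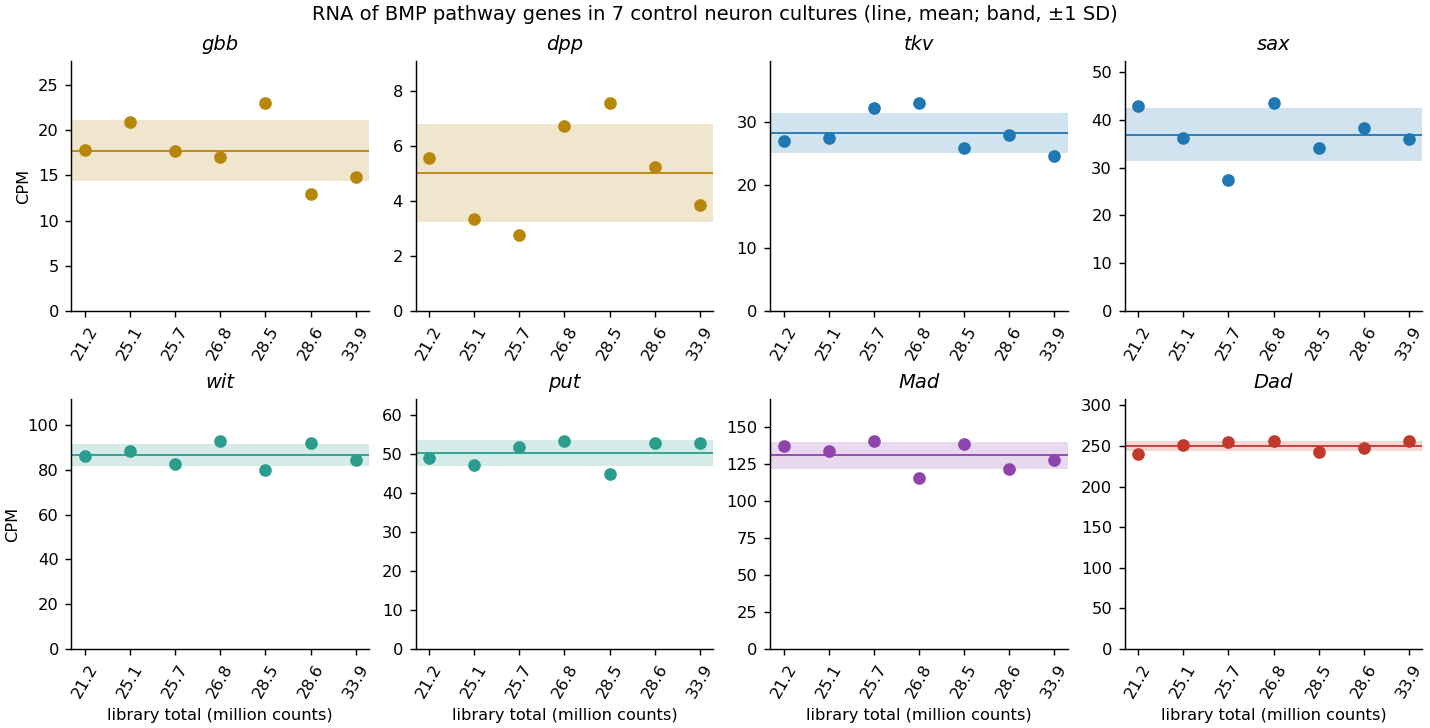
Level of each BMP pathway gene (CPM, linear axes from 0) in the 7 control cultures, ordered by library total in units of 1000000 counts; points are single cultures, the line is the mean and the band ±1 SD. Dad stayed between 240.05 and 257 CPM, while dpp ranged from 2.76 to 7.57 CPM.

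Of the ligands, gbb was the more abundant in every culture. It lies on chromosome 2R (23851562 to 23853247, plus strand; coordinates throughout are those of the BDGP6.54 annotation) and averaged 17.8 ± 3.40 CPM, or 10.5 ± 2.02 CPM per kilobase (SD, n = 7). Its lowest culture was library 28.6 with 13.0 CPM, the median was 17.7 CPM, and the highest was library 28.5 with 23.1 CPM. The gene therefore varied 1.77-fold between the extremes, with a coefficient of variation (CV) of 19.2% against the 4.65% that counting error alone gives.

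The gene dpp encodes Decapentaplegic, the BMP ligand known as a morphogen of the embryo and the wing. It lies on 2L (2428372 to 2459823, plus strand) and had the lowest level of the set, at 5.00 ± 1.78 CPM or 0.960 ± 0.341 CPM per kilobase (SD, n = 7). The values ran from 2.76 CPM in library 25.7 through a median of 5.24 to 7.57 CPM in library 28.5. These correspond to 71 to 216 counts, and the CV of 35.6% compares with 9.18% from counting alone. Per kilobase, gbb exceeded dpp 12.3 ± 5.20-fold (SD, n = 7), with ratios of 19.3 and 19.9 in libraries 25.1 and 25.7 and 7.67 to 12.0 in the other cultures. Both ligand genes were highest in library 28.5, which also had the lowest sums of neuronal markers, at 2274 CPM, and of motor neuron markers, at 157 CPM against 187 to 284 CPM elsewhere. The part of cell composition in this difference was not tested. In library 26.8, where muscle markers were highest, gbb was at 17.0 CPM and dpp at 6.70 CPM, each within the SD of its mean.

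The type I receptor genes were found at moderate levels. The gene tkv, encoding Thickveins, lies on 2L (5219000 to 5271384, minus strand) and averaged 28.4 ± 3.17 CPM, or 6.40 ± 0.714 CPM per kilobase (SD, n = 7). It was lowest in library 33.9 with 24.7 CPM, had a median of 27.5 CPM, and reached 32.3 and 33.1 CPM in libraries 25.7 and 26.8. The gene sax, encoding Saxophone, lies on 2R (7806484 to 7810067, plus strand) and averaged 36.9 ± 5.52 CPM, or 12.9 ± 1.93 CPM per kilobase. Its lowest value of 27.3 CPM came from library 25.7, its median was 36.3 CPM, and its highest values were 42.9 and 43.6 CPM in libraries 21.2 and 26.8.

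Thus library 25.7 combined the lowest sax with the second highest tkv. The ratio of tkv to sax per kilobase was 0.763 there and 0.409 to 0.491 in the other 6 cultures, with a mean of 0.508 ± 0.116 over all 7 (SD) and 0.466 without that library. In every culture sax RNA exceeded tkv RNA per kilobase. This measure does not resolve receptor proteins, and part of the tkv locus is shared with other transcripts: 158 exon bases overlap the pseudogene CR14033 on the opposite strand (108 to 249 counts per library) and 54 overlap TpnC25D (0 to 74 counts). No source names the strand setting of the counting, and reads in such stretches cannot be assigned to a gene with certainty.

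Of the type II receptor genes, wit lay above both type I genes per kilobase, while put and sax were at similar levels. The gene wit, encoding Wishful thinking, lies on 3L (4064152 to 4071717, minus strand) and averaged 86.8 ± 4.80 CPM, or 20.6 ± 1.14 CPM per kilobase (SD, n = 7). It ranged narrowly, from 80.1 CPM in library 28.5 through a median of 86.3 to 93.2 CPM in library 26.8. Exons of dib overlap 400 bases of wit on the opposite strand, 9.49% of its exon length, but dib itself had only 0 to 19 counts per library. The gene put, encoding Punt, a type II receptor shared with the Activin branch, lies on 3R (14619030 to 14625703, minus strand). It averaged 50.3 ± 3.33 CPM, or 12.5 ± 0.830 CPM per kilobase, with a lowest value of 44.8 CPM in library 28.5, a median of 51.8 CPM and a highest value of 53.4 CPM in library 26.8.

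Within a culture, wit exceeded put 1.52- to 1.79-fold per kilobase, with a mean of 1.65 ± 0.0962 (SD, n = 7). The sum of both type II genes was 1.55 to 1.93 times that of both type I genes, with a mean of 1.73 ± 0.140. The order of wit above put, and of the type II sum above the type I sum, held in 7 of 7 cultures. The type I sum holds tkv and sax only. It leaves out babo, the type I receptor gene of the Activin branch, at 26.0 ± 2.05 CPM per kilobase, although put is shared with that branch. With babo added, the mean levels of tkv (6.40), sax (12.9) and babo together exceeded those of wit (20.6) and put (12.5). The order of the sums thus holds for tkv and sax only. It was not counted by culture with babo included.

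Mad and Dad were the most abundant of the set. Mad, on 2L (3146056 to 3159643, minus strand), averaged 130.5 ± 9.26 CPM, or 38.3 ± 2.71 CPM per kilobase (SD, n = 7). It was lowest in library 26.8 with 116 CPM, had a median of 134 CPM, and was highest in library 25.7 with 140.5 CPM. Med lies on 3R (31611046 to 31615375, plus strand), and a ratio of Mad to Med could not be computed for the reason given above.

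Dad, on 3R (17054007 to 17070408, plus strand), averaged 249.9 ± 6.63 CPM, or 64.0 ± 1.70 CPM per kilobase (SD, n = 7), above 90.9% of detected genes on the latter scale. From the smallest to the largest library its values were 240.05, 251, 255, 257, 243, 247 and 256 CPM. The extremes differed by only 1.07-fold. The CV of 2.65% compared with 1.23% from counting alone, and 0.211% of detected genes had a lower one. Among the 2003 genes averaging at least 100 CPM, whose median CV was 8.28%, 0.699% had a lower CV than Dad. The narrow range, the CV and these ranks of Dad hold for scaling by library totals. The SD of Dad rose from 6.63 to 10.47 CPM with TMM factors and to 11.04 CPM with DESeq2 size factors. With library totals taken without Arc1 it was 10.63 CPM, at a mean of 288.92 CPM. The ranks were not recomputed under these scalings. Per kilobase, Dad exceeded Mad 1.53- to 1.94-fold, with a mean of 1.68 ± 0.150. The highest ratio came from library 26.8, where Mad was lowest and Dad highest, and the mean without that library was 1.64.

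**Figure D2:**
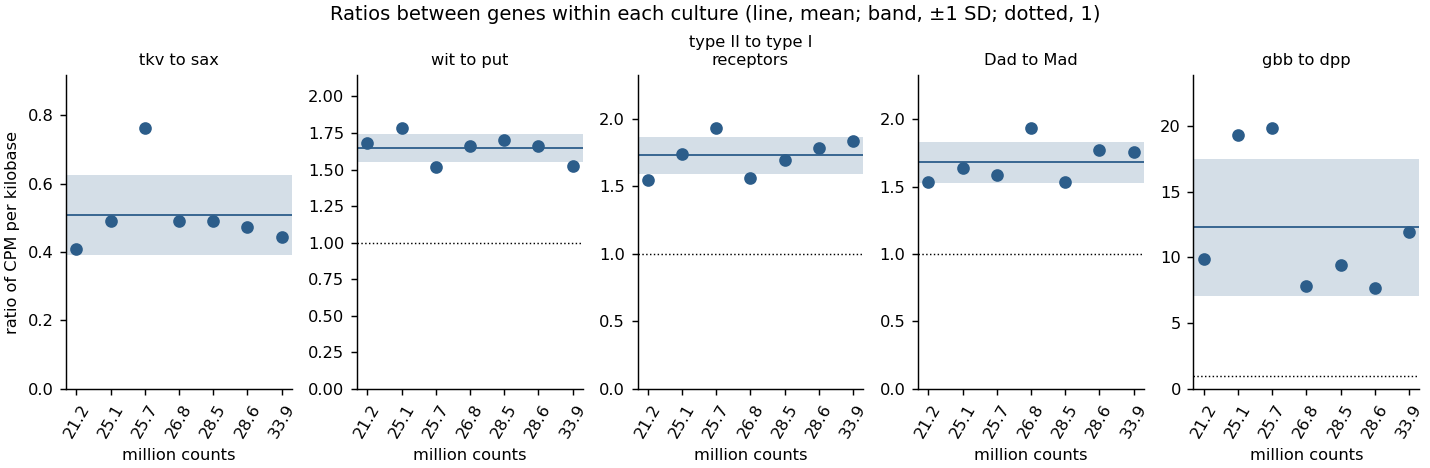
Ratios of CPM per kilobase between BMP pathway genes within each of the 7 cultures, ordered by library total in units of 1000000 counts; points are cultures, the line is the mean, the band ±1 SD and the dotted line a ratio of 1. The tkv to sax ratio of 0.763 in library 25.7 stands clear of the others, at 0.409 to 0.491.

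Ranked per kilobase, the order was Dad, Mad, wit, sax, put, gbb, tkv and dpp. The steps from Dad to Mad, Mad to wit, wit to sax, gbb to tkv and tkv to dpp exceeded the larger SD of each pair, held in 7 of 7 cultures and had ranges that did not overlap. The step from sax to put (12.9 against 12.5) did not exceed the spread and held in 5 of 7 cultures, and neither did the step from put to gbb (12.5 against 10.5), also ordered in 5 of 7. Neighbours in this middle stretch of the order thus did not differ beyond their spread. Relative to all detected genes with a length, 82.1% lay below Mad, 65.5% below wit, 51.1% below sax, 50.2% below put, 45.2% below gbb, 33.1% below tkv and 6.69% below dpp.

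**Figure D3:**
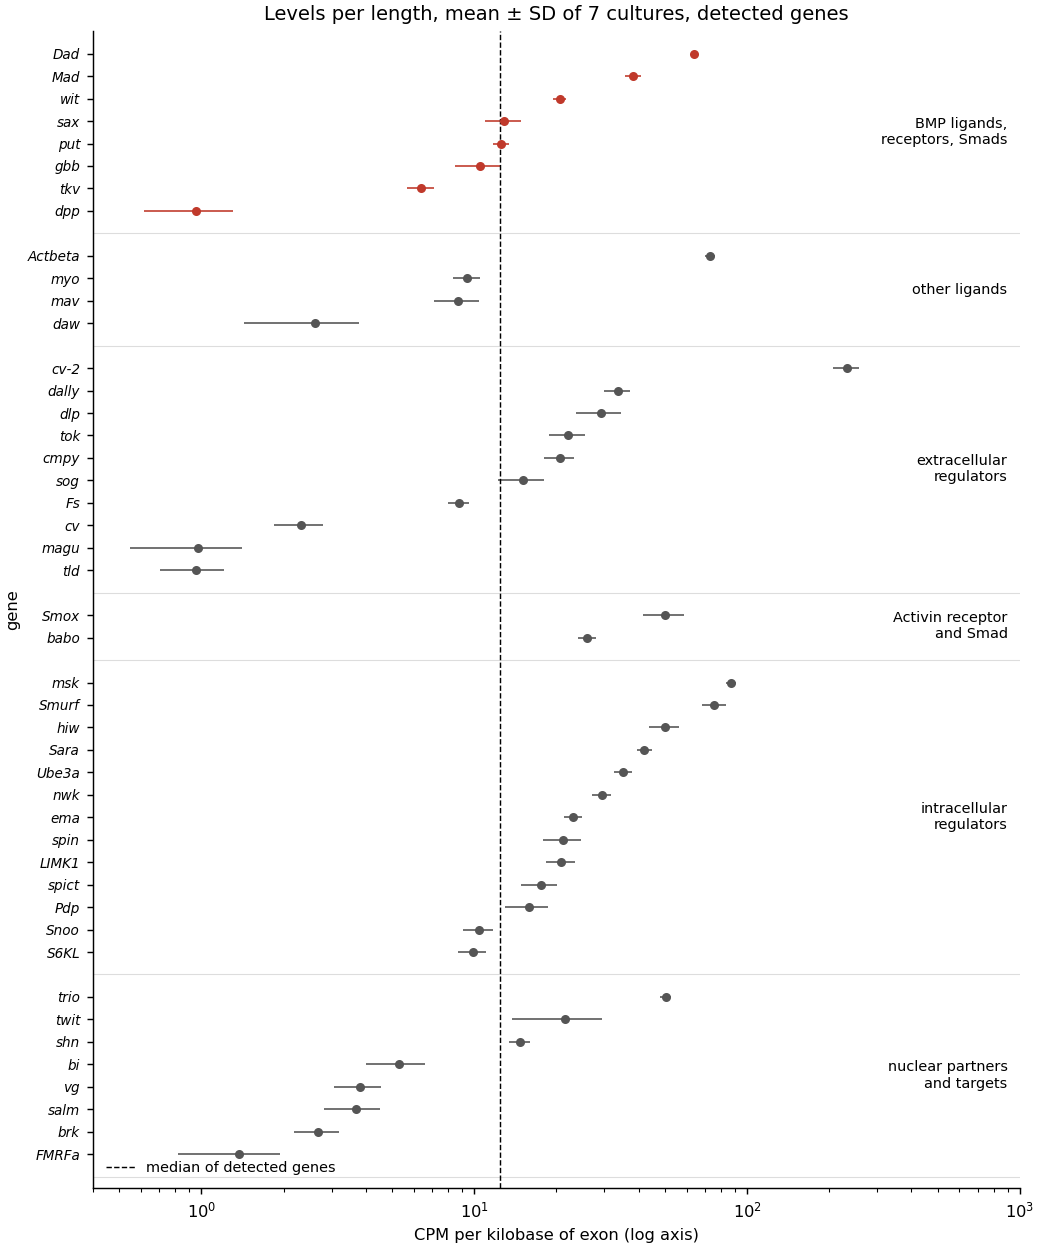
Mean level per kilobase of exon (log axis, ±1 SD of 7 cultures) of the 8 BMP pathway genes in red and of 37 further detected genes of BMP and Activin signalling in grey, grouped by role; the dashed line is the median of detected genes, 12.5. Red points run from dpp at 0.960 to Dad at 64.0, and cv-2 is the highest point at 232.

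Beyond these core genes, 37 of 39 further genes of BMP and Activin signalling were detected, with a median of 20.6 CPM per kilobase. Of 5 other ligand genes of the superfamily, 4 were detected. Actbeta, encoding the Activin-β ligand, was the highest at 73.0 ± 3.19 CPM per kilobase, above Dad at 64.0, and daw, encoding the ligand Dawdle, the lowest detected at 2.61 ± 1.18. The BMP ligand gene scw, known from the early embryo, had 0 to 9 counts per library. Among 11 extracellular regulators 10 were detected. The highest was cv-2, encoding the BMP-binding protein Crossveinless 2, at 232 ± 25.4 CPM per kilobase, and the lowest was tld, encoding the Tolloid protease that cleaves the BMP antagonist Sog, at 0.959 ± 0.253. In contrast, tsg, whose product acts with Sog, had 0 to 24 counts and was not detected.

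Both genes of the Activin branch were detected, with the Smad gene Smox at 50.1 ± 8.65 CPM per kilobase and the type I receptor gene babo at 26.0 ± 2.05. The receptor babo thus lay above tkv and sax on this scale, and Smox lay between Mad and Dad. All 13 intracellular regulators were detected, from S6KL, encoding a kinase, at 9.89 ± 1.18 to msk, encoding the importin Moleskin, at 87.4 ± 3.68 CPM per kilobase. Likewise, all 8 nuclear partners and targets were detected. They ranged from FMRFa, a neuropeptide gene under BMP control in a few neurosecretory cells, at 1.38 ± 0.558 to trio, encoding a guanine nucleotide exchange factor, at 50.4 ± 2.41 CPM per kilobase.

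Annotated 3′ UTRs of the core genes differ in number and length. The longest is that of put, annotated in 3 lengths of 692 to 2004 bases. Mad has 967 and 1363 bases, Dad 982 and 1273, wit 1062 and 1092, and Med 299 and 474 bases, while gbb (125 bases), sax (648), tkv (1093) and dpp (1263) have a single length each. The deposited values are sums per gene, so the use of these alternative ends was not resolved.

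The spread between cultures was estimated with the biological coefficient of variation (BCV), which removes counting error and draws each gene toward the trend of genes at its level. The median BCV of the 8 genes was 0.121, against 0.152 over the 9476 detected genes. The lowest was that of Dad at 0.0837, with a trend of 0.108 at its level, followed by Mad at 0.0978, wit at 0.0991, put at 0.112 and tkv at 0.130, each below its trend of 0.117, 0.126, 0.138 and 0.153. The values of sax (0.144 against 0.146), gbb (0.179 against 0.179) and dpp (0.320 against 0.299) lay near the trend. The drawing toward the trend is strong for Dad, whose SD of ln(CPM + 1) was 0.0265.

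**Figure D4:**
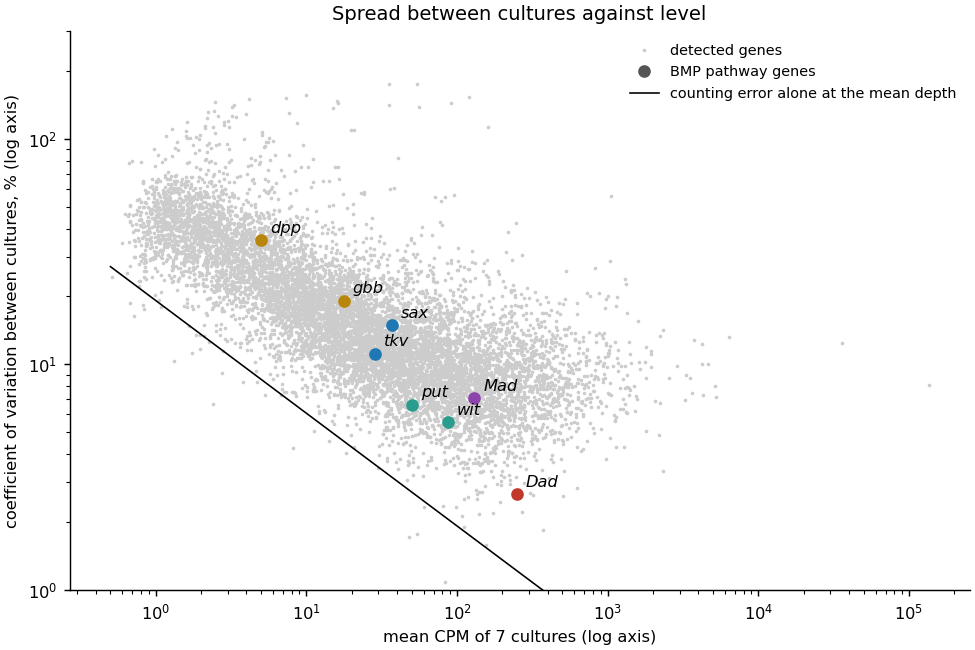
CV between the 7 cultures (%, log axis) against mean CPM (log axis) for detected genes in grey and the BMP pathway genes in colour; the line gives counting error at the mean depth. Dad, at 249.9 CPM and a CV of 2.65%, lies at the lower edge of the genes at its level, and dpp, at 5.00 CPM and 35.6%, within the cloud.

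Each gene was then compared with every other detected gene across the 7 cultures by Pearson's r of log2(CPM + 1). None of 75772 pairs passed an adjusted p of 0.05 (0.0% called; two-sided exact permutation test with Benjamini-Hochberg adjustment over all pairs), and the smallest adjusted p was 0.376. An unadjusted p under 0.05 was reached by 5986 pairs (7.9%), and by 5830 with Spearman's rho. With 7 cultures the smallest possible p is 0.000198, which 301 pairs would have to share for any to pass, and 40 did. The absence of calls therefore carries no information on whether the genes vary together.

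Of the 28 pairs among the 8 genes, 16 had a negative r. An unadjusted p under 0.05 by the exact permutation test was reached by 2, both inverse. That share is no larger than the 7.9% over all pairs, so the 2 pairs are given as a description only. The ligand gene gbb was high where the receptor gene put was low (r = -0.87, p = 0.00873 by the exact permutation test and 0.504 after adjustment; Spearman's rho = -0.86, p = 0.0238 and 0.558). Libraries 25.1 and 28.5 had the highest gbb and the lowest put, and libraries 28.6, 33.9 and 26.8 the lowest gbb and the highest put. The summed motor neuron markers followed nearly the same split, at 157 and 195 CPM in libraries 28.5 and 25.1 and at 262, 252 and 284 CPM in libraries 28.6, 33.9 and 26.8, with 187 and 209 CPM in libraries 21.2 and 25.7. VGlut alone made up most of that motor neuron sum, at 162 of 221 CPM on average. The summed neuronal markers were also lowest in libraries 28.5 and 25.1, at 2274 and 2455 CPM, against 2494 to 2794 CPM in the others. The split was thus not particular to motor neuron markers. The part of either marker set in the inverse relation was not tested. With the 2 libraries most distant from the median gbb level left out, r was -0.82. Leaving out library 28.5, which had the lowest neuronal marker sum, gave r = -0.76 with an exact permutation p of 0.0833.

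The receptor gene wit was likewise high where Mad was low (r = -0.83, p = 0.0238 by the exact permutation test and 0.558 after adjustment; Spearman's rho = -0.86, p = 0.0238 and 0.558). Here r was -0.72 once the 2 libraries most distant from the median wit level were left out. It was -0.74 without library 26.8, with an exact permutation p of 0.107, and the exact permutation p was also at or above 0.05 without library 25.7 (0.0583), 28.5 (0.05) or 28.6 (0.0639). Library 26.8, set apart by its muscle, hemocyte, fat body, photoreceptor and yolk protein RNA, had the highest wit and the lowest Mad, and also the highest tkv, sax, put and Dad. Without it the mean of wit was 85.7 CPM, of Mad 133, of tkv 27.6, of sax 35.8, of put 49.7 and of Dad 249 CPM. Library 26.8 also had the highest summed motor neuron and glial markers, at 284 and 188 CPM. Mad was lowest in libraries 26.8, 28.6 and 33.9, at 116, 122 and 127.5 CPM. Those libraries had the highest motor neuron sums, at 284, 262 and 252 CPM. In contrast, wit did not follow that split, with 84.6 CPM in library 33.9 and 88.7 CPM in library 25.1. The part of those tissues or of these markers in the inverse relation was not tested.

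**Figure D5:**
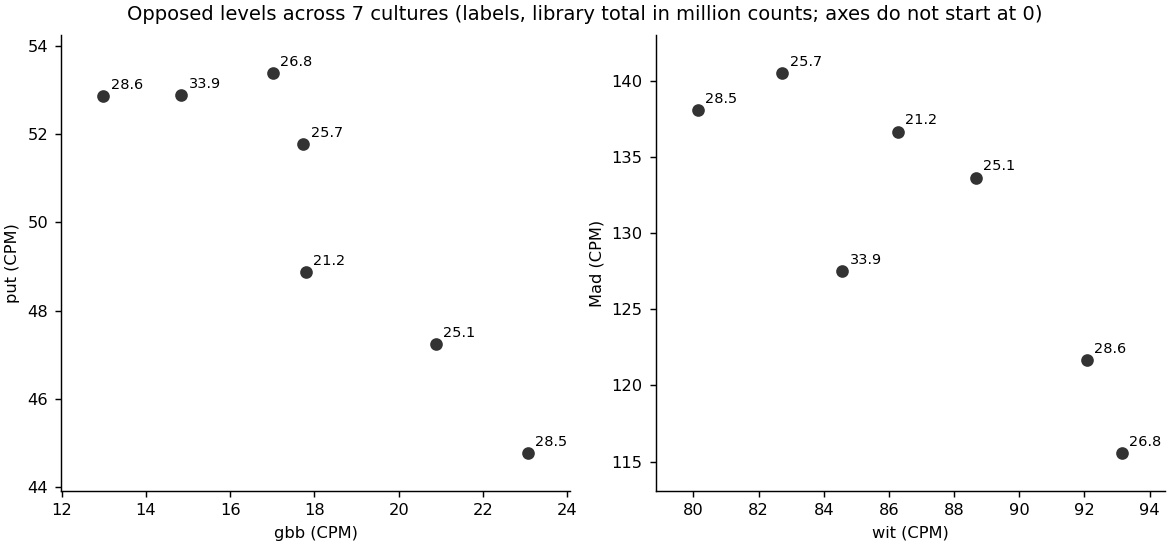
CPM of put against gbb (left) and of Mad against wit (right) in the 7 cultures, each point labelled with its library total in units of 1000000 counts; the axes do not start at 0. Both pairs fall from upper left to lower right (r = -0.87 and -0.83), and neither passed the adjusted threshold.

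The genes whose levels followed each BMP pathway gene most closely are given as a description over the same 7 libraries. For gbb they were FBgn0086613, for which the tables used here give no name (r = 0.995), and Dus2 (0.99), and for dpp mRpL55 (0.99) and Ns2 (0.97). For tkv they were snoRNA:Psi18S-920 (0.98) and snoRNA:Psi18S-996 (0.97), and for sax dmpd and CG31457 (0.97 each). For wit they were CG14079 (0.98) and mRpS33 (0.96), for put br and 5-HT2B (0.99 each), for Mad Cipc and Polr2M (0.98 each), and for Dad CG4497 (0.98) and lncRNA:CR42491 (0.97). Their adjusted p ran from 0.376 to 0.496, so none passed the threshold. They were picked for the highest r among 9475 genes per core gene, which by itself gives high values. Some had low mean levels, such as CG14079 at 0.942 CPM and mRpL55 at 2.12 CPM. Without the 2 libraries farthest from the core gene's median, r ran from 0.83 (sax with dmpd) to 0.99 (gbb with FBgn0086613). By known role, mRpL55 and mRpS33 encode mitochondrial ribosomal proteins, br an ecdysone-responsive transcription factor, 5-HT2B a serotonin receptor, and the small nucleolar RNAs guide modification of ribosomal RNA.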

How the data were processed

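RNA was sequenced from 7 control cultures of primary neurons of Drosophila melanogaster. The authors deposited counts of reads per gene, not normalized. The submitters' processing notes name the dm6 build, while no aligner, strand setting or annotation is named for these libraries in the sources used. The labels state a total RNA kit with ribosomal RNA removal and the study's methods an mRNA kit, and this was not resolved. The table also holds 8 columns of other samples, which were not used. Counts were divided by the library total (CPM). Exon lengths (union of exons) and coordinates came from the Ensembl BDGP6.54 annotation, which matched 17626 of 17753 identifiers; the others held 0.779% of counts. The CV from counting alone assumes independent reads and covers counting error only.

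Detection meant 10 or more counts in each of the 7 libraries. BCV was the square root of the tagwise dispersion of edgeR 4.0.16 (R 4.3.3; TMM, intercept only). Correlations used log2(CPM + 1), with all 5040 pairings in a two-sided exact permutation test on the absolute value of r and Benjamini-Hochberg adjustment over all pairs. No groups exist, so no differential test was made. Both steps were tested on simulated data of 9476 genes. All 200 planted followers (median r 0.981) had an unadjusted p under 0.05 by the exact permutation test, as did 5.45% of unrelated pairs. Of the followers 0 passed the adjusted threshold. That was set by their number, since 301 pairs must share the smallest p for any to pass. A BCV of 0.3 came back as 0.215 for 200 raised genes, and a median of 0.101 as 0.109 for the others.

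The genes, the lists of further pathway genes and the marker lists were chosen with earlier results of these data known. Named were all 9 core genes, the genes of each pathway list that were not detected or had the highest and lowest level per length, the 2 genes most like each core gene, pairs of core genes with an unadjusted p under 0.05, and Arc1. The genes that overlap exons of tkv and wit, and the marker VGlut, fall outside this rule and were added after their counts were seen. Alternatives were another scaling (TMM, DESeq2 1.42.0 size factors, totals without Arc1), detection limit, length, pseudocount or measure of spread, and leaving out each library. Outlying libraries were sought with Dixon's gap ratio, with a limit of 0.568 for 7 samples.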

Additional observations from a re-analysis of the deposited data

Results flagged for a closer look

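Across 27 measures, each BMP pathway gene, ratio and sum of a pathway or marker list was searched for an outlying library. Such a library had a gap to the nearest other that took too large a share of the range by Dixon's limit for 7 samples. For a measure not chosen on the data, chance passes this limit in about 1 of 20 groups. The limit was passed by 6 measures, of which 1 was among the 13 gene levels and ratios. The ratio of tkv to sax per kilobase was 0.763 in library 25.7, against 0.409 to 0.491 in the others. The other 5 were sums of markers in library 26.8: hemocyte 66.9 CPM, muscle 306 CPM, fat body 17.6 CPM, photoreceptor 914 CPM and yolk protein 742 CPM. The genes and lists were chosen with earlier results of these data known, and these 5 sums share 1 library. The number passed can therefore not be set against the chance rate. No level of a single BMP pathway gene passed the limit in any library.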

How the results depend on the processing

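Of 273 values recomputed under alternatives, 257 stayed within the tolerance used and 16 moved further. A reversal could be scored only for 40 values of ratios and 22 of correlations, and 0 reversed. For levels and ratios the tolerance was the SD between cultures, and for BCV the jackknife error over cultures. Counts, including the number of ranks kept, had to stay within a fixed factor. Single correlations had to stay on the same side of the adjusted threshold. Leaving out a single library cannot shift a mean over 7 by its SD, so mean CPM and mean ratios could not move in that setting. The 257 include those values and are no measure of robustness. With library totals taken without Arc1, which held 13.5% of counts (11.5% to 15.0%), the median level per kilobase was 14.7 instead of 12.7, beside 14.4 over detected genes, and 6 of 8 mean CPM values moved by more than their SD. Ordered by CPM without length, 4 of 8 genes kept their rank, in the order Dad, Mad, wit, put, sax, tkv, gbb and dpp. With the longest transcript as length, the ratio of type II to type I receptors was 1.55 instead of 1.73. With the SD of log2(CPM + 1), converted to natural log units to share the scale of BCV, the median was 0.0886 instead of 0.121, and unconverted it was 0.128. Without library 21.2 put ranked above sax. At 100 counts in every library 7 of 8 genes were detected, dpp being the exception with a lowest count of 71. No correlation passed the adjusted threshold under any alternative, which carries no information at these numbers of libraries. When each library was left out, 4577 to 6120 had an unadjusted p under 0.05 by the exact permutation test. No paired analysis was possible because there is no second group to pair with. Depth limits dpp most, since its counts were the lowest.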
